A study of Mus musculus with 5 samples.

Results

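The proteasome genes of mouse embryonic stem (ES) cells were followed across Dicer-deficient (KO) and wild-type (WT) cells. Members were the genes whose symbol starts with Psma to Psmg followed by a digit, taken from probe sets with exactly 1 symbol, and where a gene had several, the brightest on average over the 5 arrays was read. This gave 50 of 19938 genes measured. Of the 50, 2 match by symbol but were not counted as proteasome genes. These were Psmc3ip, a partner of the meiotic recombinases, and Psme3ip1, a protein that binds an activator of the proteasome. They are given apart, which leaves 48 proteasome genes: 19 of the core particle (Psma and Psmb), 20 of the regulatory particle and its chaperones (Psmc and Psmd), 4 activators, the regulator Psmf1 and 4 chaperones of core assembly.

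The Dicer-deficient group had 2 arrays and the wild-type group had 3, each from an asynchronous culture that the design text calls a biological replicate. Both groups were grown free of feeder cells in an equal mixture of serum medium with LIF and of N2B27+2i, a serum-free medium with kinase inhibitors. Early G1 cells and a further Dicer-deficient culture, which the design text also describes, were not analysed here. The labels name neither the ES cell line of each genotype nor the Dicer allele, so the loss of Dicer and any other difference between the cells of each genotype cannot be told apart. Array medians lay between 5.39 and 5.45 on the log2 scale, and precision is limited by how few arrays there were. Dicer1, which encodes the ribonuclease that cuts microRNA precursors, had signals of 7.20 and 6.84 on the Dicer-deficient arrays, against 8.84, 8.82 and 8.85 on the wild-type arrays. All 10 ES cell markers, Pou5f1, Nanog and Sox2 among them, had mean signals above the median of all probe sets, 5.40.

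The proteasome degrades proteins tagged with ubiquitin. Its core particle is a barrel of stacked rings, in which α subunits gate the entry and β subunits carry the proteolytic sites inside. The regulatory particle caps the barrel: its base holds a ring of ATPases that unfold the substrate, and its lid removes the ubiquitin chain. ES cells are known for high proteasome activity, and the subunit genes are known to be induced together by the transcription factor NRF1 (Nfe2l1) when proteasome activity falls.

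Promoter sequence is shown here for 4 genes on which the results turn: Psmc6 and Psmb5, which were lower in Dicer-deficient cells and whose upstream sequence holds the core of the antioxidant response element that NRF1 and NRF2 bind, Psmb3, the core gene with the largest fall, and Psmb6, a catalytic gene that did not pass the test. Each stretch is the 250 bases before the annotated start, from RefSeq on GRCm38.p6, read 5′ to 3′ along the gene. Capitals mark TGACNNNGC, the element's core, and CCAAT, the box bound by NF-Y, on either strand. They do not overlap.
Psmc6 (chr14:45329574-45329823, plus strand): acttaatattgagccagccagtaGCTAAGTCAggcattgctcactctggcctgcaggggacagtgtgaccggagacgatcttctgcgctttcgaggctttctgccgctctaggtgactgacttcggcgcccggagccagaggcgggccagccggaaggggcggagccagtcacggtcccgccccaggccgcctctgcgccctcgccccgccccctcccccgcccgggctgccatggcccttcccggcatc
Psmb5 (chr14:54617996-54618245, minus strand): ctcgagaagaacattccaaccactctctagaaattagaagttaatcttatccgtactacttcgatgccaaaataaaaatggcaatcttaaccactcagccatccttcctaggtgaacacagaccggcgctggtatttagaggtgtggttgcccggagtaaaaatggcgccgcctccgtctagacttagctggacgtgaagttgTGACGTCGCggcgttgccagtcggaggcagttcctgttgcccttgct
Psmb3 (chr11:97703184-97703433, plus strand): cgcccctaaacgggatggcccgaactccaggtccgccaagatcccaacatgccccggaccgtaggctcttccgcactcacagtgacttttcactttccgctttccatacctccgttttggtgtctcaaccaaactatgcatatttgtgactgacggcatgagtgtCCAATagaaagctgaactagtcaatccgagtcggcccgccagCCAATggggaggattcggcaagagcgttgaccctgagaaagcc
Psmb6 (chr11:70525107-70525356, plus strand): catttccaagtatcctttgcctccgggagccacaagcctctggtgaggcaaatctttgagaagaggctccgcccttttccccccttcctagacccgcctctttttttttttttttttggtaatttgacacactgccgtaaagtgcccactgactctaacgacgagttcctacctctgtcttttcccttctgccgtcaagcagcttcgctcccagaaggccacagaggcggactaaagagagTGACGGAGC

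The element's core lay on the reverse strand 227 bases before the start of Psmc6, and on the forward strand 47 bases before that of Psmb5 and 9 bases before that of Psmb6. Upstream sequence was found for 42 of the 50 genes. TGACNNNGC was held by 5 of these 42 (11.9%), namely Psmb5, Psmb6, Psmc6, Psmd9 and Psmd12, and by 11.5% of the 27025 genes with upstream sequence. Of the 5, Psmb5 and Psmc6 passed the test described below and the others did not. CCAAT was held by 16 of 42 (38.1%), against 37.5% of all genes, and the GC box GGGCGG by 23 of 42 (54.8%), against 35.4% of all genes. Among genes lower in Dicer-deficient cells, 5 of 11 held CCAAT, as did 11 of the 30 that did not pass. A match is a stretch of letters and was not tested as a binding site.

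The question for each gene was whether its signal differed between Dicer-deficient and wild-type cells. Differences were tested with limma across all 19938 genes, and a gene was called at a Benjamini-Hochberg adjusted p under 0.05. Of the 50 genes, 11 were lower in Dicer-deficient cells, 2 were higher and 37 did not pass, so that 26% were called. The same fit called 17.1% of all genes, 8.48% of them higher and 8.6% lower. Proteasome genes are bright on the array, however, and 48 of the 50 lay above the median signal. Among all genes above it 27.9% were called, 13.5% higher and 14.4% lower, so the members' share of calls was near that of genes above the median signal, while 22% of members were called lower and 4% higher. Both Dicer-deficient arrays lay below the wild-type range for 19 members (38%) and above it for 7 (14%), against 19.9% and 20% of all genes and 29% and 26.4% of genes above the median signal.

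The differences were small. Among the 13 called genes, log2 changes lay between 0.29 and 0.65 in size, or 1.22-fold to 1.57-fold, and 0 of 13 reached 2-fold. The median change over the 48 proteasome genes was -0.03 on the log2 scale, against 0.01 over all genes, and 30 of the 48 had a negative value. The changes of the 48 ran from -0.65 for Psmc6 to 0.43 for Psma8. Because whole cultures were measured, fewer cells of a kind and less RNA per cell cannot be told apart.

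**Figure D1:**
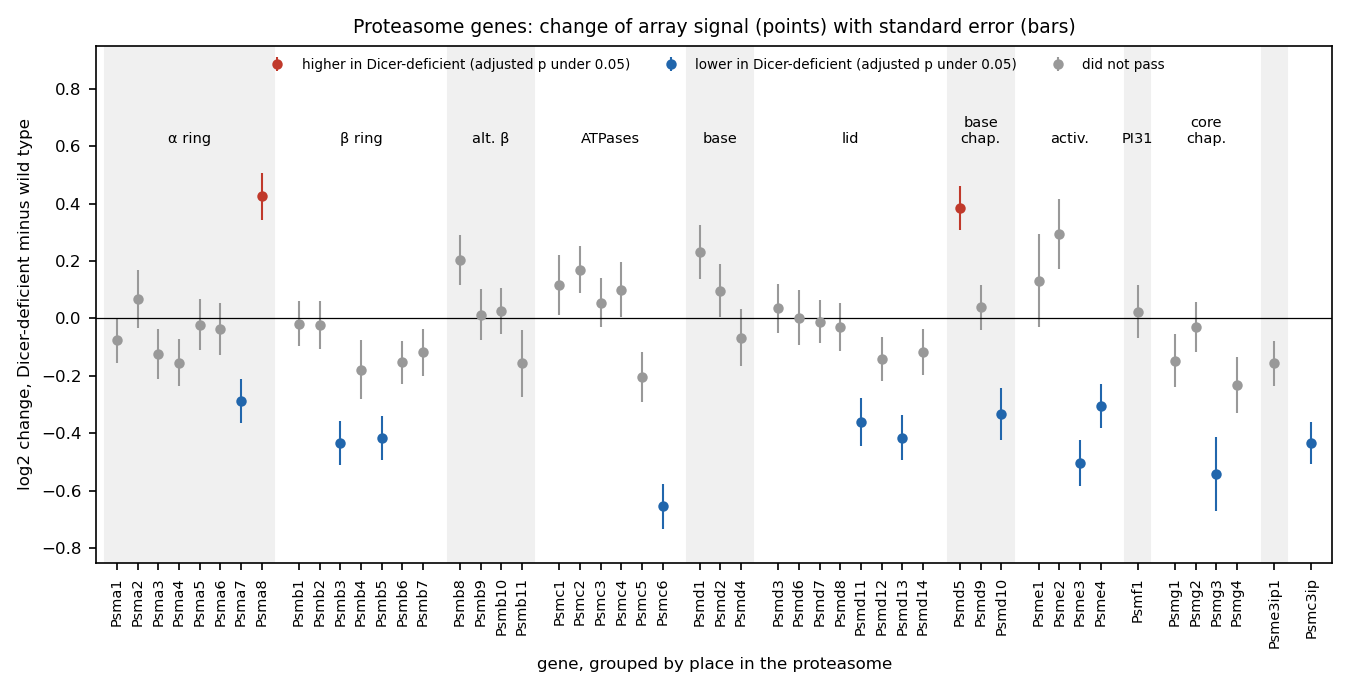
Log2 change of each gene's array signal, Dicer-deficient minus wild type, in order of the genes' place in the proteasome. Points are limma's estimates from 2 Dicer-deficient and 3 wild-type arrays, bars are standard errors, and colour marks the calls. Psmc6 stands lowest at -0.65 and Psma8 highest at 0.43.

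In the core particle, 3 of 19 genes (15.8%) were lower and 1 (5.26%) was higher, with a median log2 change of -0.08. Of all genes above the median signal, 14.4% were lower and 13.5% higher, so the core's share of lower calls was near theirs. All 7 standard β subunit genes had negative values (median -0.15), and 2 of them, Psmb3 and Psmb5, passed the test. After a second quantile normalization, Psmb1 and Psmb2 were at 0.02 and 0.01 instead. Psmb3, a β subunit without a proteolytic site of its own, had signals of 10.63 and 10.65 in Dicer-deficient cells, against 11.14, 11.05 and 11.03 in wild-type cells. The groups did not overlap, and the log2 change was -0.43 (SE 0.0779, limma adjusted p = 0.00831), 1.35-fold lower. A second Psmb3 probe set, annotated with the same transcripts and dimmer, had a change of -0.49. Its place in the genome could not be checked, so it is not taken as an independent reading of the gene.

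Psmb5 encodes the β subunit with the chymotrypsin-like site, the target of the proteasome inhibitor bortezomib. Its signals were 9.48 and 9.46 in Dicer-deficient cells, against 9.94, 9.84 and 9.88 in wild-type cells. All Dicer-deficient values lay below all wild-type values, with a log2 change of -0.42 (SE 0.0766, limma adjusted p = 0.0091), 1.33-fold lower. The genes of the other proteolytic sites did not pass: Psmb6, of the caspase-like site, had -0.15 (adjusted p = 0.24) and Psmb7, of the trypsin-like site, had -0.12 (adjusted p = 0.444), although both Dicer-deficient arrays were below the wild-type range for each. The remaining β genes Psmb1, Psmb2 and Psmb4 had log2 changes of -0.02, -0.02 and -0.18.

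Among the α subunits Psma7 and Psma8, which occupy the same place in the ring, passed the test in opposite directions. Psma7, the subunit of somatic proteasomes, had signals of 9.52 and 9.55 in Dicer-deficient cells, against 9.84, 9.77 and 9.86 in wild-type cells. Its log2 change was -0.29 (SE 0.0763, limma adjusted p = 0.0392), the smallest among the called genes. Psma8, which replaces Psma7 in the proteasomes of the testis, had signals of 7.75 and 7.74 in Dicer-deficient cells, against 7.32, 7.24 and 7.40 in wild-type cells. The groups did not overlap, and Psma8 was 1.34-fold higher in Dicer-deficient cells (log2 change 0.43, SE 0.0819, adjusted p = 0.0112). Signals of different probe sets are not on a common scale, so the relative amounts of the Psma7 and Psma8 transcripts cannot be read from these values. The other α genes, Psma1 to Psma6, lay between -0.16 (Psma4) and 0.07 (Psma2).

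The subunits that replace the standard β subunits in immune cells and the thymus did not pass the test. Psmb9, which takes the place of Psmb6 in the immunoproteasome, had signals of 6.96 and 7.04 in Dicer-deficient cells, against 6.90, 6.96 and 7.10 in wild-type cells. Psmb10, which takes the place of Psmb7, had 6.93 and 6.83 in Dicer-deficient cells, against 6.91, 6.82 and 6.83 in wild-type cells. In both the groups overlapped, with log2 changes of 0.01 (SE 0.0892) and 0.03 (SE 0.0798).

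Psmb8, which takes the place of Psmb5 in the immunoproteasome, had 4.75 and 4.73 in Dicer-deficient cells, against 4.44, 4.52 and 4.65 in wild-type cells (log2 change 0.20, limma adjusted p = 0.185). The Dicer-deficient values were above all wild-type values, but these signals, under the median of 5.40, may not exceed the background. The same holds for Psmb11, the thymus counterpart of Psmb5, with 4.70 and 4.58 in Dicer-deficient cells and 4.62, 4.98 and 4.79 in wild-type cells.

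In the regulatory particle and its chaperones, 4 of 20 genes (20%) were lower and 1 (5%) was higher, against 14.4% and 13.5% of all genes above the median signal. The median log2 change was -0.01, with 10 genes on each side of 0. The largest change of all members was that of Psmc6, an ATPase of the base, whose signals were 8.89 and 8.91 in Dicer-deficient cells, against 9.62, 9.54 and 9.50 in wild-type cells. All Dicer-deficient values lay below all wild-type values. Psmc6 was 1.57-fold lower (log2 change -0.65, SE 0.0783, limma adjusted p = 0.0015), and it was the sole member to keep its call whichever array was left out (adjusted p up to 0.042).

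The other ATPases of the ring did not pass: Psmc1, Psmc2, Psmc3 and Psmc4 had positive values of 0.06 to 0.17, and Psmc5 had -0.21. The 3 other genes of the base, the scaffold subunits Psmd1 and Psmd2 and the ubiquitin receptor Psmd4, had 0.23, 0.10 and -0.07. Psmd1 passed the test, with a log2 change of 0.30 (adjusted p = 0.0422), when the arrays were quantile normalized again.

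Of the 8 lid genes taken in by the symbol rule, 2 were lower and 0 higher in limma, against 14.4% and 13.5% of all genes above the median signal. Sem1, also of the lid, falls outside the rule and is counted below among the proteasome-associated genes. Its log2 change of -0.36 did not pass (limma adjusted p = 0.0782), with both Dicer-deficient arrays below the wild-type range. Psmd13 had signals of 9.17 and 9.10 in Dicer-deficient cells, against 9.53, 9.61 and 9.51 in wild-type cells, 1.33-fold lower (log2 change -0.42, SE 0.0786, adjusted p = 0.0103). Psmd11, a lid subunit whose raised level has been linked to the high proteasome activity of human pluripotent cells, had 9.83 and 9.73 in Dicer-deficient cells, against 10.22, 10.13 and 10.07 in wild-type cells. The groups did not overlap in either gene, and Psmd11 was 1.28-fold lower (log2 change -0.36, SE 0.0842, adjusted p = 0.0245). Psmd14, the deubiquitinase of the lid, had -0.12, with both Dicer-deficient arrays below the wild-type range, and Psmd3, Psmd6, Psmd7, Psmd8 and Psmd12 lay between -0.14 and 0.04.

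Of the chaperones that guide the assembly of the base, Psmd5 and Psmd10 passed the test in opposite directions. Psmd5 had signals of 9.37 and 9.38 in Dicer-deficient cells, against 9.04, 8.95 and 8.98 in wild-type cells, 1.31-fold higher (log2 change 0.39, SE 0.0759, limma adjusted p = 0.0122). Psmd10, also known as the oncoprotein gankyrin, had 7.06 on both Dicer-deficient arrays, against 7.50, 7.41 and 7.27 in wild-type cells (log2 change -0.33, SE 0.0908, adjusted p = 0.0431). Neither gene's groups overlapped. Psmd9 had a change of 0.04.

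The core and regulatory particles were set side by side array by array. The core genes' median deviation from their wild-type means was -0.05 and -0.10 on the Dicer-deficient arrays, against 0.06, -0.02 and -0.03 on the wild-type arrays. For the regulatory genes it was -0.03 and -0.01 on the Dicer-deficient arrays, against 0.05, 0.03 and -0.06 on the wild-type arrays. The core minus regulatory difference was -0.025 and -0.08 on the Dicer-deficient arrays and 0.00, -0.04 and 0.03 on the wild-type arrays, so the groups overlapped in it. The core's medians on the Dicer-deficient arrays lay below those on the wild-type arrays, and the regulatory particle's overlapped. The core's median was -0.12 without Psma8 and the alternative β subunits, with 13 of these 14 standard genes negative. A second quantile normalization moved the medians to -0.04 for the core and 0.05 for the regulatory particle. It also turned Psma5, Psma6, Psmb1 and Psmb2 slightly positive (0.02, 0.01, 0.02 and 0.01).

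The 2 activators known to act mainly in the nucleus were lower. Psme3, which encodes the single-chain ring activator PA28γ, had signals of 9.39 and 9.49 in Dicer-deficient cells, against 10, 9.93 and 9.90 in wild-type cells, 1.42-fold lower (log2 change -0.50, SE 0.0801, limma adjusted p = 0.00495). Psme4, the large activator PA200, had 9.56 and 9.61 in Dicer-deficient cells, against 9.93, 9.90 and 9.84 in wild-type cells, 1.24-fold lower (log2 change -0.31, SE 0.0767, adjusted p = 0.0324). For both genes the groups did not overlap. Psme3ip1, the binding partner of PA28γ, had -0.16 and did not pass.

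The activator of the immunoproteasome, built from Psme1 and Psme2, did not pass the test, and its values differed between the Dicer-deficient arrays. Psme1 had 9.44 and 8.85 in Dicer-deficient cells, against 8.92, 9.05 and 9.07 in wild-type cells, so that its Dicer-deficient arrays lay on either side of the wild-type range. Psme2 had 7.83 and 7.41 in Dicer-deficient cells, against 7.33, 7.32 and 7.33 in wild-type cells (log2 change 0.29, adjusted p = 0.169), with both Dicer-deficient values above the wild-type ones. Without Dicer-deficient array 1 the change of Psme1 turned to -0.16 and that of Psme2 was 0.08, and without array 2 that of Psme2 passed at 0.50 (limma adjusted p = 0.0448). A near-identical copy, Psme2b, shares another probe set with Psme2, so the source of the Psme2 signal is uncertain. Psmf1, the regulator PI31, had 7.51 on both Dicer-deficient arrays, against 7.58, 7.53 and 7.35 in wild-type cells, and the groups overlapped.

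All 4 chaperones of core assembly had negative values, and Psmg3 passed. Its signals were 5.79 and 5.86 in Dicer-deficient cells, against 6.18, 6.31 and 6.61 in wild-type cells (log2 change -0.54, SE 0.128, limma adjusted p = 0.0252). The groups did not overlap, but the wild-type arrays were farther apart than for any other called member, with an SD of 0.221. Psmg1, Psmg2 and Psmg4 had -0.15, -0.03 and -0.23. Psmc3ip, set apart above, was also lower, with 7.24 on both Dicer-deficient arrays, against 7.64, 7.68 and 7.70 in wild-type cells (adjusted p = 0.00676).

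**Figure D2:**
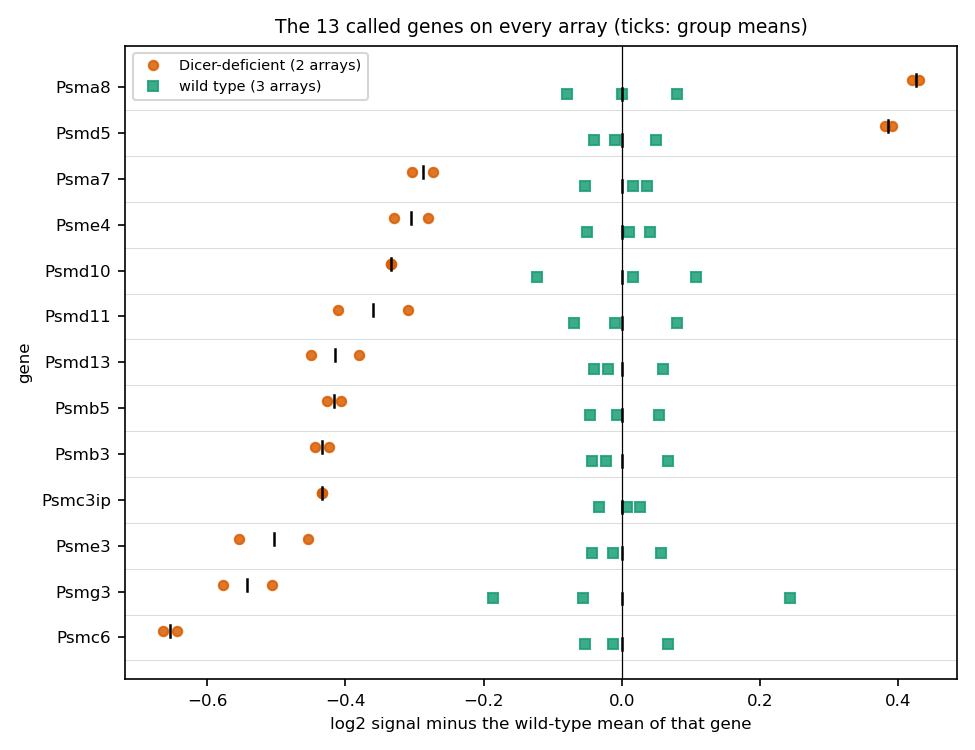
Signal of the 13 called genes on every array, as log2 signal minus the gene's wild-type mean, with Dicer-deficient arrays (circles) above wild-type arrays (squares) and ticks at the group means. In each row the Dicer-deficient circles lie clear of the wild-type squares, at 0.43 for Psma8 and -0.65 for Psmc6 on average. The genes were picked by the test on these same arrays, so the separation adds no support to the calls.

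Psmc6 apart, each called member lost its call without at least 1 of the arrays. Without Dicer-deficient array 1 the fit called 1 member lower, Psmc6, and 0 higher, and without Dicer-deficient array 2 it called 2 lower, Psmc6 and Psme3, and 1 higher, Psme2. Without wild-type array 1, 2 or 3 it called 7, 5 and 10 lower and 2, 0 and 2 higher. Psmb3, Psmb5 and Psmc3ip lost their calls without either Dicer-deficient array (adjusted p between 0.0639 and 0.0848), and Psme3 lost its call without Dicer-deficient array 1 (0.0698). Psma8, Psmd5, Psmd13 and Psmg3 also lost theirs without wild-type array 2 (0.0561 to 0.0963). Psmd10, Psmd11 and Psme4 lost theirs without either Dicer-deficient array or wild-type array 1 or 2, and Psma7 without each of the 5 arrays (adjusted p from 0.067 to 0.172).

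The members' changes were set beside those of neighbouring genes. The 10 measured genes on each side of a member, counting those above the median signal, had a negative median change for 9 of the 11 members called lower, for 0 of the 2 called higher and for 16 of the 37 others. Over all genes above the median signal, 62.8% of those called lower, 39.8% of those called higher and 52.1% of those not called had such neighbours. On chromosome 14, 138 of 699 genes were lower and 41 higher, and on chromosome 11, 234 of 1563 were lower and 82 higher. The part of these chromosomal shifts in the members' changes was not tested.

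Psmb5 on chromosome 14 had 12 of 20 neighbours lower and 0 higher, with a neighbour median of -0.45 against its own -0.42. Psmc6, elsewhere on chromosome 14, had a change of -0.65, and its neighbours had a median of -0.14, with 7 lower and 2 higher. Psme1 and Psme2, also on chromosome 14, had neighbour medians of -0.29 and -0.37 and positive changes of their own, 0.13 and 0.29. Neither change passed the test (limma adjusted p = 0.704 and 0.169), and that of Psme1 was -0.16 without Dicer-deficient array 1. Both genes lie close together and share neighbours, so they are not separate cases. Psmd6, also on chromosome 14, had a change of 0.00 among neighbours with a median of 0.21.

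On chromosome 11, 7 of 8 proteasome genes had both Dicer-deficient arrays below the wild-type range, against 29.1% of all genes on the chromosome and 40.7% of those above the median signal. Both arrays lay above that range for 0 of the 8, against 14.4% and 16.9%. Of the 8, 4 passed the test: Psmb3, Psmd11, Psme3 and Psme4. Their neighbour medians were -0.30, -0.17, -0.15 and -0.15, each smaller in size than the gene's own change. Genes picked for passing the test have large changes by selection, so this comparison does not set them apart from their neighbours. The gene of the transcription factor NRF1, Nfe2l1, is on this chromosome too. Off chromosome 14, 8 of 42 proteasome genes were lower and 2 higher, with a median of -0.03. Among all genes above the median signal, 14.4% were lower and 13.5% higher. Psma7, Psmd13, Psmd10 and Psmg3, the other proteasome genes called lower, lie on chromosomes 2, 7, X and 5.

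**Figure D3:**
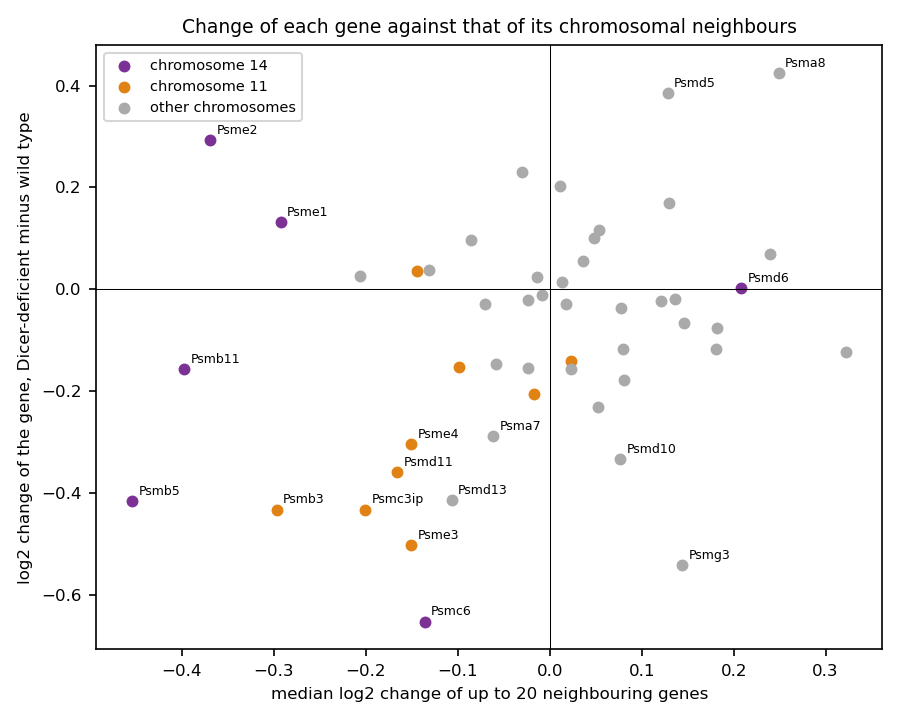
Each member's log2 change, Dicer-deficient minus wild type, against the median log2 change of up to 20 neighbouring genes above the median signal, 10 on each side. Psmb5 lies near its neighbours' value (-0.42 and -0.45), while Psme1 and Psme2 lie at 0.13 and 0.29 among neighbours at -0.29 and -0.37. The changes of Psme1 and Psme2 did not pass the test, and these genes share neighbours.

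Some genes that work with the proteasome changed by more than any of its subunits. Of 11 proteasome-associated genes measured, 2 were higher, 1 was lower and 8 did not pass, with a median log2 change of 0.13. Of all genes above the median signal, where these 11 lay, the fit called 13.5% higher and 14.4% lower. The same shares stand beside the counts of the lists below. Ecpas, which encodes the scaffold protein ECM29 that binds core and regulatory particle, had signals of 8.64 and 8.44 in Dicer-deficient cells, against 7.23, 7.15 and 7.22 in wild-type cells. It was 2.53-fold higher (log2 change 1.34, SE 0.089, limma adjusted p = 0.000146). Fbxo7, an F-box protein that binds PI31, had 7.16 and 6.87 in Dicer-deficient cells, against 7.77, 7.86 and 7.77 in wild-type cells, 1.72-fold lower (adjusted p = 0.00214).

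Both genes kept their calls whichever array was left out. Zfand2a, a stress-induced protein that associates with the proteasome, was 1.45-fold higher in Dicer-deficient cells (adjusted p = 0.0148), with its call lost without wild-type array 1 or 2 or either Dicer-deficient array (adjusted p up to 0.174). Pomp, the maturation factor of the core particle, had 10.17 and 10.21 in Dicer-deficient cells, against 10.39, 10.53 and 10.34 in wild-type cells. The Pomp groups did not overlap, but the change of -0.23 did not pass (adjusted p = 0.127; 0.0413 with array weights). The ubiquitin receptor Adrm1 was not analysed here.

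Among 12 transcription factors tied to proteasome genes and the enzyme that processes NRF1, 2 were higher and 2 lower, with a median of 0.06. Nfe2l1, which encodes NRF1, had 8.62 and 8.66 in Dicer-deficient cells, against 9.18, 9.11 and 9.20 in wild-type cells. It was 1.44-fold lower (log2 change -0.52, SE 0.0766, limma adjusted p = 0.00345; 0.0559 without Dicer-deficient array 1). Nfe2l2, which encodes the related antioxidant factor NRF2, had 9.47 and 9.30 in Dicer-deficient cells, against 9.03, 8.95 and 8.92 in wild-type cells, 1.34-fold higher (adjusted p = 0.0154; 0.0592 to 0.13 without wild-type array 2 or either Dicer-deficient array). The groups of these related factors thus lay apart in opposite directions. Nfya, a subunit of the CCAAT-binding NF-Y, was 1.42-fold higher (adjusted p = 0.00624; lost without either Dicer-deficient array, up to 0.0887), and Hsf2, a heat shock factor, was 1.26-fold lower (adjusted p = 0.0423; lost without each of the 5 arrays, up to 0.25).

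Of 10 shuttle factors and partners of the segregase VCP, which deliver substrates to the proteasome, 0 were higher and 1 was lower in limma, with 4 at an unadjusted p under 0.05. The one called was Ubqln4, a ubiquilin, 1.28-fold lower (adjusted p = 0.0281; lost without wild-type array 1 or 2 or either Dicer-deficient array, up to 0.184). Of the ubiquitin genes and activating enzymes 2 were measured, and Uba6, which activates ubiquitin at the start of the cascade, was 1.49-fold higher (adjusted p = 0.00718; lost without either Dicer-deficient array, up to 0.108).

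The antigen presentation list held partners of the immunoproteasome and genes of the interferon response. Of its called genes, Tapbp and Erap1 act on peptides, and Ifngr1, Ifngr2 and Irf1 belong to the interferon response. Of 14 measured, 5 were higher and 0 lower in limma, with a median of 0.19. Over all genes 8.48% were higher and 8.6% lower, and above the median signal 13.5% and 14.4%. Tapbp, the tapasin that loads peptides onto MHC class I, had 9.59 and 9.33 in Dicer-deficient cells, against 7.62, 7.52 and 7.63 in wild-type cells, 3.66-fold higher (log2 change 1.87, SE 0.0992, adjusted p = 7.3e-05). Ifngr2, a chain of the interferon-γ receptor, had 8.30 and 8.25 in Dicer-deficient cells, against 6.59, 6.98 and 6.86 in wild-type cells, 2.76-fold higher. For both genes every Dicer-deficient value lay above every wild-type value.

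Erap1, which trims the peptides made by the proteasome, had 6.07 and 5.90 in Dicer-deficient cells, against 4.58, 4.56 and 4.63 in wild-type cells (log2 change 1.40, adjusted p = 0.000121), where the wild-type signals, again under 5.40, may not exceed the background. Irf1, an interferon-induced transcription factor, had 8.32 and 7.84 in Dicer-deficient cells, against 7.18, 7.20 and 7.05 in wild-type cells, 1.91-fold higher (adjusted p = 0.00376). For Irf1 the log2 change of 0.94 became 0.43 when its probe sets were averaged (adjusted p = 0.0194). Ifngr1, the other chain of the interferon-γ receptor, had 5.57 and 5.51 in Dicer-deficient cells, against 5.10, 5.13 and 5.02 in wild-type cells (adjusted p = 0.00701; lost without either Dicer-deficient array, up to 0.0822), and these wild-type signals, too, may not exceed the background. Tap1 and Tap2, the peptide transporters encoded beside Psmb8 and Psmb9, had changes of 0.24 and 0.09, and B2m, the light chain of MHC class I, had -0.15, none of which passed. Of 6 leukocyte markers 1 was higher (Cd3e, log2 change 1.25) and 1 lower (Cd68, -1.19) in Dicer-deficient cells. The mean signal of the 6 was 5.34 and 5.28 on the Dicer-deficient arrays and 5.34, 5.30 and 5.29 on the wild-type arrays. In this mean the opposite changes of Cd3e and Cd68 offset each other. The pan-leukocyte marker Ptprc lay between 4.14 and 4.25 on all arrays.

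**Figure D4:**
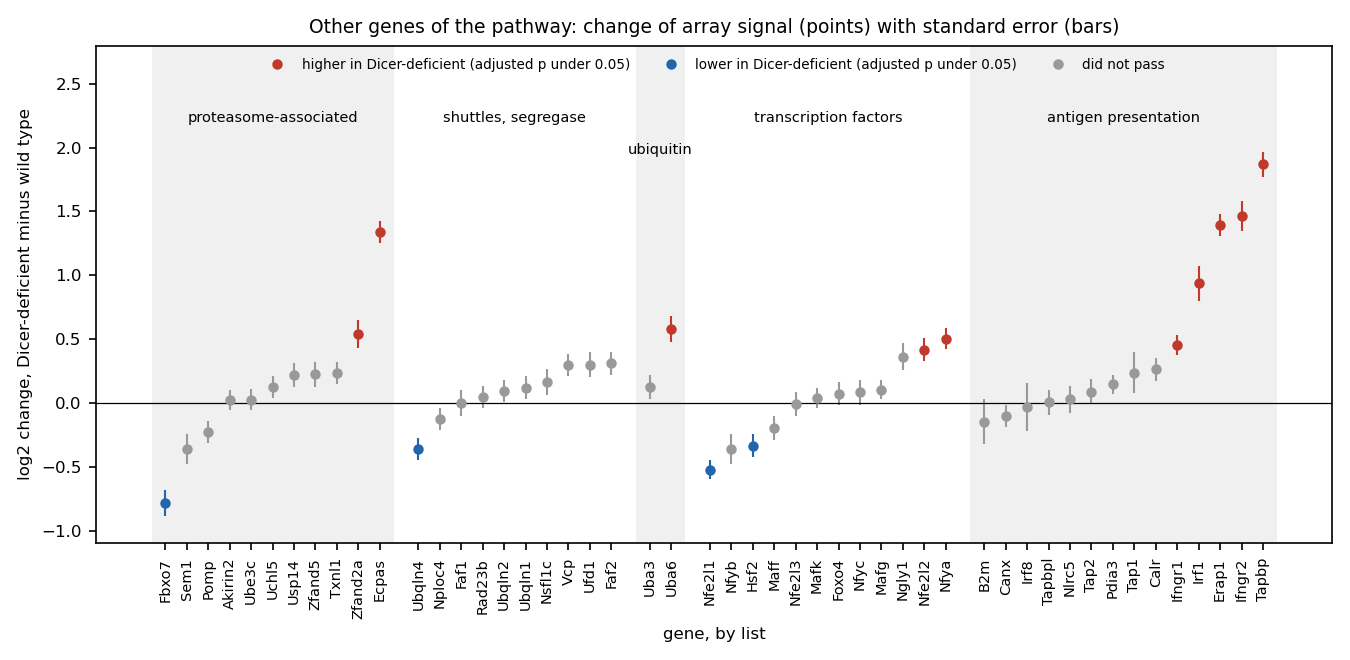
Log2 change, Dicer-deficient minus wild type, of genes that work with the proteasome, by list and in order of size within each list. Points are limma's estimates, bars standard errors and colours the calls. Tapbp (1.87), Ifngr2 (1.47), Erap1 and Ecpas (1.34) stand highest, and Fbxo7 lowest at -0.79.

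Some other markers differed between the genotypes as well. Trophectoderm markers had 3 of 7 higher in Dicer-deficient cells (Gata3, Krt8 and Krt18) and 0 lower in limma, with 3 at an unadjusted p under 0.05. Cdx2, Elf5, Tfap2c and Hand1 did not pass, with log2 changes of 0.06, 0.06, -0.03 and -0.05. Of these, Cdx2 and Elf5 lay under the median signal. The mean signal of the 7 markers was 6.74 and 6.61 on the Dicer-deficient arrays, against 6.12, 6.19 and 6.30 on the wild-type arrays. Of the ES cell markers, Klf2 was higher and Esrrb and Tdgf1 were lower. Feeder fibroblast and primitive endoderm markers had 0 of 10 and 0 of 7 called by limma, with 2 and 0 at an unadjusted p under 0.05. The part of these differences in the changes of the proteasome genes was not tested.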

How the data were processed

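Biotin-labelled cRNA from 2 Dicer-deficient and 3 wild-type cultures was hybridised to Affymetrix whole-transcript arrays, per the labels' protocols. The authors deposited a normalized log2 signal with 2 decimals for each of 35556 probe sets. Background correction, summarisation, normalization and log base are not given in the sources used here. The values were read as log2 from their range. Detection above background was not analysed here.

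The platform annotation, which can be old, gave 21789 probe sets 1 symbol, 1621 several and 12146 none. Only those with 1 symbol were named. Of the 50 members, 5 had several probe sets. limma (lmFit, eBayes; 3 residual and 4.545 prior degrees of freedom) was fitted to all 19938 genes, Dicer-deficient minus wild type, with Benjamini-Hochberg adjustment at 0.05, and tested on simulated data. With 3 against 2 arrays an exact permutation test cannot pass, so none was run. SDs are between arrays, SEs are limma's, and p-values weigh the group difference against limma's moderated spread between these cultures.

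Every called member, the alternative subunits, the activators and PI31 are given array by array. Of each other list, counts and up to 4 called genes are given, with Pomp, Nfe2l1, Nfe2l2 and, added after the values were seen, Ifngr1. The members and lists were chosen with earlier results of these data known. Psme3ip1 was set apart, and the neighbour counts and array gaps were added, after the values were seen. Chromosomes and sequences are from RefSeq (GRCm38.p6). The software was limma 3.58.1 in R 4.3.3, and Python 3.11.15.

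Alternatives were a second quantile normalization, median centring, leaving out low-signal genes, array weights, a moderation that was robust or followed intensity, a replicate block, each array left out, averaged probe sets, a fit to every probe set, treat against 1.2-fold, no members on chromosome 14, and other memberships.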

Additional observations from a re-analysis of the deposited data

How the results depend on the processing

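Of the 13 called members, 0 changed direction under any alternative, and Psmc6 alone kept its call with every array left out in turn. With each array left out, 1 to 10 members were called lower and 0 to 2 higher, against 11 and 2 with all arrays, while calls over all genes ran from 434 to 1558 lower and from 536 to 1395 higher. Over these fits the core median ran from -0.105 to -0.045 and the regulatory median from -0.045 to 0.0175. With the replicate number as a block, 1 member was called lower and 0 higher, and 417 and 477 of all genes, with 1 residual degree of freedom. Deviations of same-numbered arrays correlated at 0.0492 and 0.00525. With 2 Dicer-deficient arrays their deviations mirror each other, so this check cannot decide whether same-numbered arrays were paired. With all probe sets in the fit, 6 members were called lower, and 922 genes lower and 1036 higher overall. Against a 1.2-fold minimum, treat called 1 member lower and 0 higher. The regulatory median was 0.0475 after a second quantile normalization, and the core median was -0.12 without the alternative subunits. Psma7 lost its call after the second normalization (adjusted p = 0.0791), and Psmd10 with median centring (0.0582) or an intensity trend (0.0536). The cause was not tested. With 2 arrays in the Dicer-deficient group, changes of the size seen here could not be measured to better than a standard error of 0.0741 to 0.128 for the called members.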

Other observations

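The Dicer-deficient arrays differed from each other more in the immunoproteasome activator than in any other proteasome gene. Array 1 was above array 2 by 0.59 for Psme1 and by 0.42 for Psme2, while the third largest gap among the 50 genes was 0.22 and the median gap 0.07. Of the 11198 genes above the median signal, 0.938% had as large a gap as Psme1 and 3.46% as large a gap as Psme2. Irf1 and B2m, from the antigen presentation list, were also higher on array 1, by 0.48 and 0.46, whereas Psmb8 and Psmb9 had gaps of 0.02 and -0.08 and Nlrc5 of 0.13. Of the 11198 genes, 2.07% and 2.39% had gaps as large as those of Irf1 and B2m. Such gaps were not particular to antigen presentation: Tfap2c had 8.33 and 7.83 on Dicer-deficient arrays 1 and 2, and Nanog 11.56 and 11.13. B2m also varied among the wild-type arrays, with 7.34, 7.14 and 6.84. These genes were chosen after their values were seen, and with 2 arrays the gap could not be tested.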
